A study of Taeniopygia guttata with 46 samples.

Results

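The posterior telencephalon and the testis were compared within the same 8 adult male zebra finches (Taeniopygia guttata), all kept for 5 h at an air temperature of 35 °C, which lies inside the thermoneutral zone of the species. The groups were 8 telencephalon libraries and 8 testis libraries, 1 of each per bird, chosen by the temperature and tissue in their labels and joined by bird number. They make up 16 of the 46 RNA sequencing libraries of the study, whose other birds were kept at 27 or 43 °C. No genetic change and no agent other than air temperature is given in the labels, and all 8 birds had the same 5 h exposure, so both groups carry it. The telencephalon was dissected coarsely from frozen brain, and both tissues are mixtures of many cell types. The comparison therefore gives the tissue difference at this temperature, before any effect of cold or heat is considered.

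The telencephalon is the large forebrain division that holds the auditory areas and most nuclei of the song system in songbirds, built of neurons, astrocytes, oligodendrocytes and other cells. The testis holds germ cells at every step from spermatogonia to sperm, with Sertoli cells that support them and Leydig cells that make androgens. In vertebrates the testis is known for transcribing an unusually broad part of the genome, many genes at low level, and the brain for a broad set of genes as well. In bulk tissue, fewer cells of a type and less RNA per cell cannot be told apart, and this holds for every difference given here.

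Total counts per library were 10202361 to 14096858 in the telencephalon, against 14232073 to 25440619 in the testis, and the testis library was the deeper one in 8 of 8 birds. Each testis library was the sum of a paired-end and a single-end column, and the paired-end column gave 40.5 to 41.5% of the counts in 6 birds and 53.6% and 54.0% in birds T154 and T157. Each telencephalon library had 1 column, so tissue and way of sequencing cannot be told apart, and the main results were also computed from each testis column alone. Over 13936 genes the log2 levels of 2 libraries of the same tissue correlated across genes at 0.979 to 0.985 in the telencephalon, against 0.968 to 0.983 in the testis. Across tissues the correlation was 0.467 to 0.497 for the same bird and 0.459 to 0.504 for different birds. The libraries thus grouped by labelled tissue, without exception. Marker genes were not analysed here, because 0 of the 18618 gene identifiers could be matched to a symbol, and for the same reason no function is attached to a gene.

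The number of genes detected was lower in the telencephalon, and the gap lay in genes with few counts. Before any correction for depth, 15288 ± 115 genes had at least 1 count in a telencephalon library and 16372 ± 213 in a testis library (SD, n = 8 each). Every library was then reduced in expectation to the lowest total of the 16, 10202361 counts. At that equal depth the telencephalon had 15085, 15175 and 15269 genes with at least 1 count (lowest, median and highest library), and the testis 15699, 15982 and 16053. The groups did not overlap. The mean difference, telencephalon minus testis, was -758 ± 156.2 genes (SD of 8 paired differences), with the telencephalon lower in 8 of 8 birds. The exact two-sided sign-flip permutation p was 0.00781, the smallest that 8 birds allow, and 0.0104 after Benjamini-Hochberg adjustment over 20 per-library measures.

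Splitting the detected genes by count showed where the tissues parted. Genes with 1 to 9 counts at equal depth numbered 2347 ± 44.4 in the telencephalon, against 3024 ± 88.5 in the testis (SD, n = 8 each), a difference of -677 in which the telencephalon was lower in 8 of 8 birds (exact permutation p = 0.00781, adjusted p = 0.0104). Genes with at least 10 counts at equal depth numbered 12834 ± 89.1 in a telencephalon library, against 12916 ± 141.3 in a testis library (SD, n = 8 each). Here the groups overlapped widely, the telencephalon was higher in 3 of 8 birds, and the mean difference of -81.4 ± 171 (SD) was not past the threshold (exact permutation p = 0.172, adjusted p = 0.191). CPM are counts scaled to the library total after correction for composition by TMM (trimmed mean of M values), whose factors were 1.03 to 1.08 in telencephalon libraries and 0.917 to 0.981 in testis libraries. At a threshold of 1 CPM, 12689 ± 79.3 genes passed in a telencephalon library, against 12907 ± 142.6 in a testis library, a difference of -218 with the telencephalon lower in 7 of 8 birds (exact permutation p = 0.0156, adjusted p = 0.0195). This call rested on the scaling: with CPM of total counts alone, an alternative chosen after seeing the data, the difference was -35.1 (exact permutation p = 0.609).

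**Figure D1:**
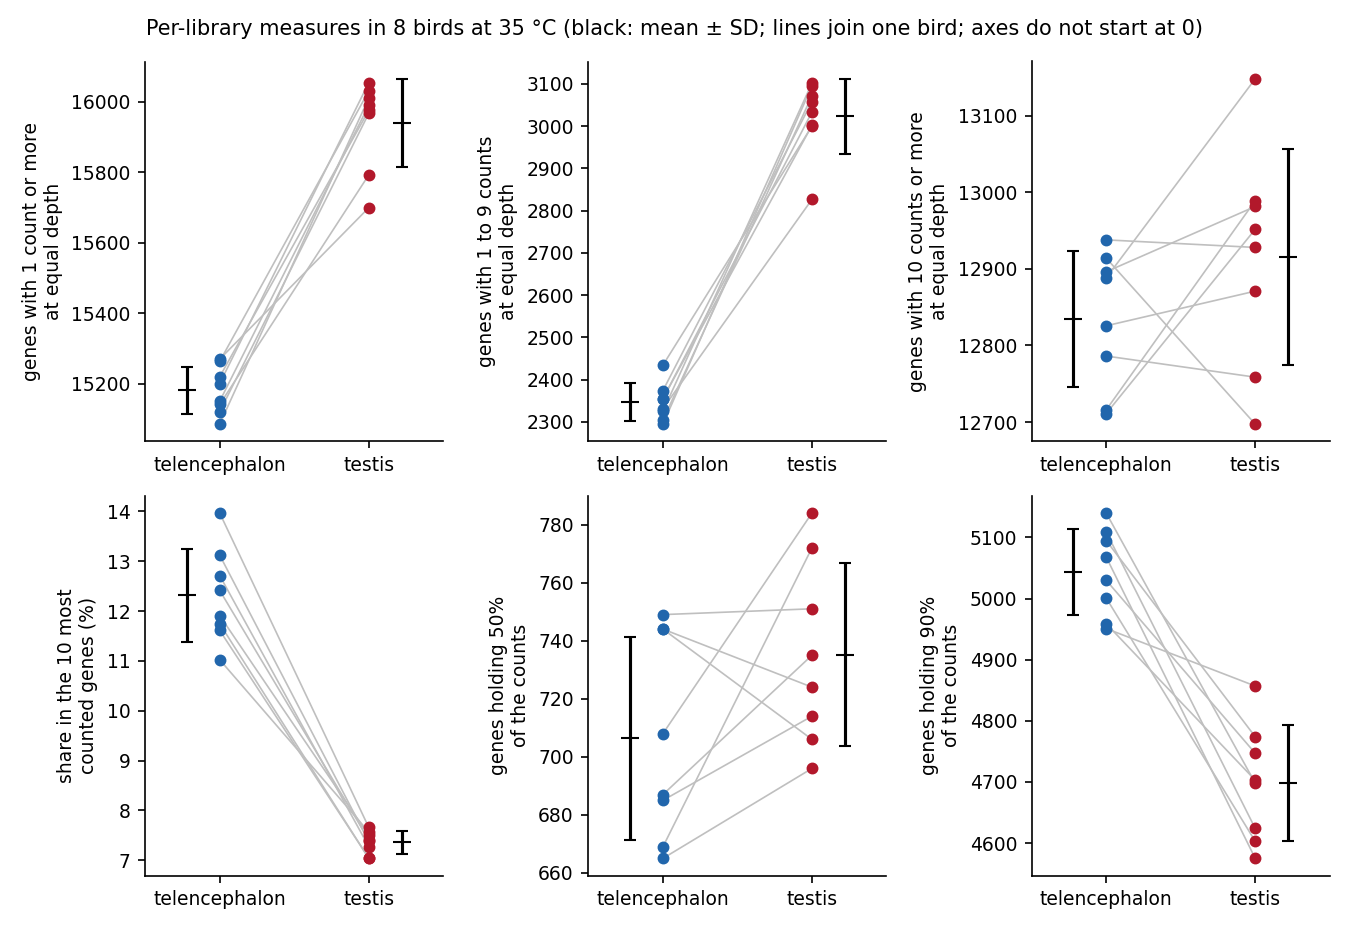
Measures of each library in 8 birds at 35 °C, telencephalon on the left and testis on the right of each panel; points are libraries, grey lines join the tissues of 1 bird, and black marks give the mean ± SD. The upper panels show numbers of genes at equal depth and the lower panels show the concentration of counts. The tissues are apart in genes with at least 1 count, in genes with 1 to 9 counts, in the share of the 10 most counted genes and in genes holding 90% of the counts, and they overlap in the other 2 panels.

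Counted over all libraries, the same asymmetry stood in the genes that were missing from 1 tissue. Of the 18618 genes, 1131 had 0 counts in all 16 libraries. A further 4.98% (927 genes) had 0 counts in all 8 telencephalon libraries and at least 1 count in a testis library. The opposite, 0 counts in all 8 testis libraries and at least 1 count in a telencephalon library, held for 0.833% of the genes. A gene at 0 counts is limited to 0.0292 CPM over the telencephalon libraries and to 0.0203 CPM over the testis libraries (3 counts of the summed totals after the same scaling, counting error only). Genes counted in every library of a tissue numbered 14159 in the telencephalon, against 15026 in the testis. Of these, 31 had no count in any testis library and 303 had no count in any telencephalon library. Unlike the numbers at equal depth, these counts are not corrected for the deeper testis libraries.

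The counts of the telencephalon were more concentrated in a few genes. The most counted gene of a library held 3.50, 4.28 and 4.83% of its counts in the telencephalon (lowest, median and highest library) and 1.05, 1.26 and 1.63% in the testis. The 10 most counted genes held 11.02, 12.2 and 14.0% in the telencephalon, against 7.04, 7.398 and 7.66% in the testis, without overlap. The mean difference of this share was 4.95 ± 0.881 percentage points (SD), telencephalon minus testis, with the telencephalon higher in 8 of 8 birds (exact permutation p = 0.00781, adjusted p = 0.0104). The gap did not come from the first gene alone, since ranks 2 to 10 held 8.11 ± 0.603% of the counts in the telencephalon, against 6.09 ± 0.308% in the testis (SD, n = 8 each; telencephalon higher in 8 of 8 birds, exact permutation p = 0.00781, adjusted p = 0.0104).

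Beyond the first ranks the order of the tissues changed more than once. Ranks 11 to 100 held 14.6 ± 0.296% and 14.7 ± 0.394% of the counts in the telencephalon and the testis (SD, n = 8 each), a difference of -0.05 ± 0.523 points that was not past the threshold (exact permutation p = 0.805, adjusted p = 0.805). Ranks 101 to 1000 held 29.1 ± 0.425% in the telencephalon, against 34.3 ± 0.533% in the testis, lower in the telencephalon in 8 of 8 birds. Genes of middle rank thus took a larger part of the testis libraries. Ranks 1001 to 5000 held 33.8 ± 0.501% in the telencephalon, against 34.8 ± 0.553% in the testis, again lower in the telencephalon in 8 of 8 birds (differences of -1.95 to -0.0278 points). Genes beyond rank 5000 held 10.2 ± 0.270% in the telencephalon, against 8.89 ± 0.344% in the testis, higher in the telencephalon in 8 of 8 birds. For each of these 3 ranges the exact permutation p was 0.00781 and the adjusted p 0.0104. The shares of all ranks add up to the whole library, so these differences are tied to each other and are not independent results.

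Because these differences have opposite signs, a summary of concentration depended on where it was taken. The first 1000 genes together held 56.0 ± 0.723% of the counts in the telencephalon, against 56.3 ± 0.827% in the testis (SD, n = 8 each; difference -0.287 points, exact permutation p = 0.477, adjusted p = 0.502). The number of genes that together hold 50% of the counts was 706 ± 35.0 in the telencephalon, against 735 ± 31.5 in the testis, a difference of -28.9 ± 47.3 (SD) that was not past the threshold (exact permutation p = 0.133, adjusted p = 0.156). The number that holds 90% was 5044 ± 70.2 in the telencephalon, against 4698 ± 94.95 in the testis, higher in the telencephalon in 8 of 8 birds (difference 346.5, exact permutation p = 0.00781, adjusted p = 0.0104). So the telencephalon had the heavier first ranks, and it also needed more genes to reach 90% of its counts.

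**Figure D2:**
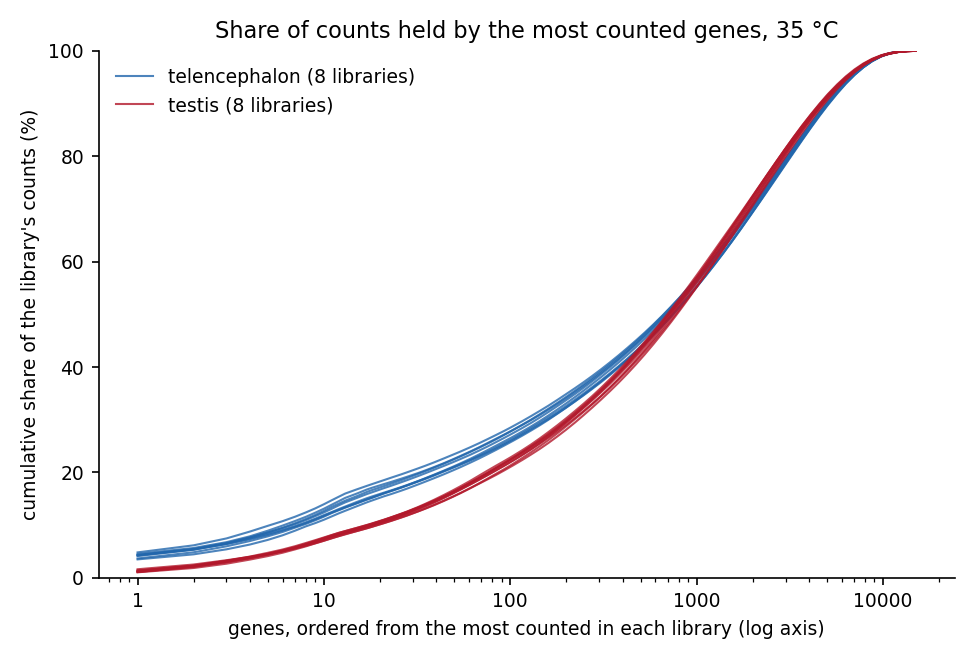
Cumulative share of a library's counts (%) against gene rank on a log axis, 1 line for each of 8 telencephalon libraries (blue) and 8 testis libraries (red) at 35 °C, genes ordered within each library. The telencephalon lines lie above the testis lines at 10 genes and at 100 genes (26.9 ± 1.009% against 22.04 ± 0.612%), the lines of the tissues overlap at 1000 genes, and the telencephalon lines lie below at 5000 genes, where 10.2% against 8.89% of the counts are still to come.

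Counts are not divided by transcript length here, so a rank is a rank by counts and not by molecules. Of the 10 most counted genes of each tissue, by mean share, 1 was in both lists, as were 25 of the 100 and 318 of the 1000 most counted. The 10 most counted genes of the telencephalon were also well counted in the testis, with a median rank of 28.5 and none beyond rank 133 there. The 10 most counted genes of the testis had a median rank of 1574 in the telencephalon, and 1 of them ranked 13394 there. The leading telencephalon genes held 12.3% of the counts in their own tissue and 2.90% in the testis, and the leading testis genes held 4.77% in the telencephalon and 7.32% in their own tissue. Most of that 4.77% belonged to the 1 gene in both lists, ENSTGUG00000018747.

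ENSTGUG00000018747 was the most counted gene of the telencephalon and the second most counted of the testis. Its level was 32586, 40265 and 46561 CPM in the telencephalon (lowest, median and highest of 8 birds) and 6700, 9492 and 11001 CPM in the testis. The groups did not overlap, and the log2 fold change, telencephalon over testis, was 2.095 ± 0.061 (SE), a 4.27-fold difference. It took 4.201% of all counts in the telencephalon, against 0.886% in the testis. In the birds at 27 °C its lowest, median and highest levels were 32592, 38821 and 53563 CPM in the telencephalon, against 8689, 9555 and 11103 CPM in the testis. At 43 °C they were 36267, 40296 and 44478 CPM in the telencephalon, against 9695, 10976 and 13929 CPM in the testis.

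ENSTGUG00000012067 was the most counted gene of the testis. Its level was 279, 295 and 309 CPM in the telencephalon (lowest, median and highest of 8 birds) and 10744, 13639 and 16847 CPM in the testis, where it held 1.27% of the counts. Its rank was 440 in the telencephalon, against 1 in the testis. The log2 fold change was -5.49 ± 0.097 (SE), 45.0-fold lower in the telencephalon. Both genes were picked as the most counted gene past a 2-fold difference in favour of their tissue, so these differences are descriptions and no test is given.

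Most genes with a clear level were present in both tissues. A gene was called shared when it had at least 1 CPM in all 16 libraries, and tissue-only when it had at least 1 CPM in all 8 libraries of 1 tissue and under 0.1 CPM in all 8 of the other. In these libraries the lower limit allows at most 1 count in a telencephalon library and at most 1 or 2 counts in a testis library. There were 10413 shared genes, 55.9% of the 18618 listed. They held 94.6 ± 0.185% of the counts in the telencephalon, against 92.1 ± 0.226% in the testis (SD, n = 8 each). There were 39 telencephalon-only genes and 161 testis-only genes.

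The tissue-only genes differed in number and in level. The 39 telencephalon-only genes had a median mean level of 6.43 CPM in the telencephalon and reached 300.1 CPM, and 12 of them were at 10 CPM or more and 2 at 100 CPM or more. The 161 testis-only genes had a median mean level of 8.36 CPM in the testis and reached 1304 CPM, with 75 at 10 CPM or more and 20 at 100 CPM or more. Together the telencephalon-only genes held 0.115 ± 0.00804% of the counts in the telencephalon, and the testis-only genes 0.941 ± 0.0524% of those in the testis (SD, n = 8 each). Of the 39, 10 had 0 counts in all testis libraries, and of the 161, 76 had 0 counts in all telencephalon libraries. The numbers follow the limits: with 0.5 CPM in place of 0.1 CPM as the upper limit in the other tissue there were 268 telencephalon-only and 411 testis-only genes, and after all libraries were reduced to the lowest total there were 18 and 168 (a reduction chosen after seeing the data).

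Between the shared and the tissue-only genes lay a wider group that was firmly present in 1 tissue and weak or variable in the other. A total of 1436 genes had at least 1 CPM in all telencephalon libraries and lay between the limits in the testis, and they held 5.00 ± 0.169% of the counts in the telencephalon, against 0.145 ± 0.0185% in the testis (SD, n = 8 each). The mirror group, at least 1 CPM in all testis libraries and between the limits in the telencephalon, had 1215 genes and held 0.129 ± 0.0239% in the telencephalon, against 6.66 ± 0.159% in the testis. Of the 2 groups, that of the telencephalon had more genes and that of the testis the larger share of counts. That order in number rests on the rule of 1 CPM in all 8 libraries. The rule was met by 11888 genes for the telencephalon, against 11789 for the testis. Counted per library, genes at 1 CPM or more averaged 12689 in the telencephalon, against 12907 in the testis. By that count the telencephalon was lower in 7 of 8 birds. The part of spread between birds in this change of order was not tested. Among weak genes the group sizes stood the other way round. There, 281 genes lay between the limits in telencephalon libraries and under 0.1 CPM in testis libraries. The mirror group, under 0.1 CPM in telencephalon libraries and between the limits in testis libraries, had 1193. These 2 numbers rest on few counts per gene and are not corrected for the deeper testis libraries. A further 2349 genes lay between the limits in both tissues and 1531 lay under 0.1 CPM in both.

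**Figure D3:**
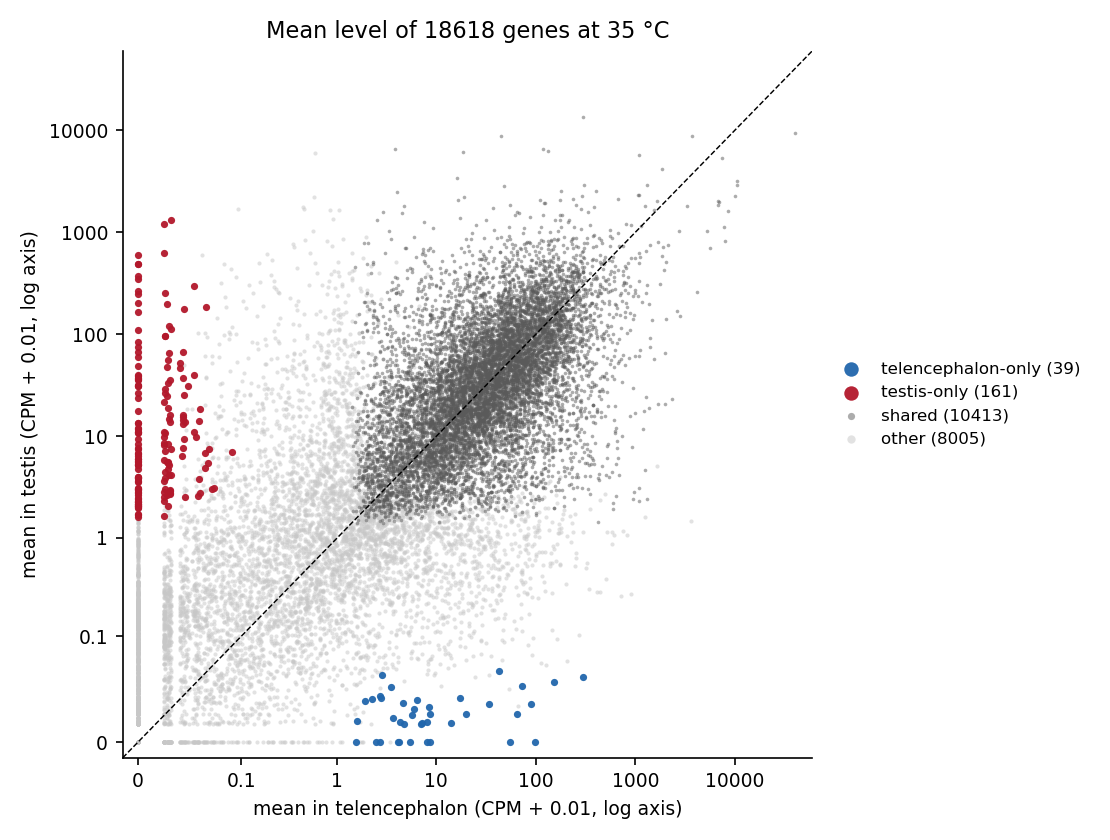
Mean level of each of 18618 genes at 35 °C in the telencephalon (x axis) and the testis (y axis), in CPM plus 0.01 on log axes, with the dashed line at equal levels. Blue points are the 39 telencephalon-only genes, red points the 161 testis-only genes, dark grey the 10413 shared genes and light grey all others. Telencephalon-only genes reach 300.1 CPM and testis-only genes 1304 CPM.

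The telencephalon-only gene with the highest level was ENSTGUG00000001910, at 234, 315 and 336 CPM in the telencephalon (lowest, median and highest of 8 birds) and 0, 0.0235 and 0.0886 CPM in the testis. It had 2899 to 4667 counts in every telencephalon library and 5 counts in all 8 testis libraries together. The ratio of summed counts per depth, telencephalon over testis, was 8865, with an exact counting interval (95%, counting error only) of 3799 to 27301. In the birds at 27 °C it had 281, 317 and 376 CPM in the telencephalon and was at 0 counts in every testis library. At 43 °C its lowest, median and highest levels were 221, 275 and 299 CPM in the telencephalon and 0, 0 and 0.106 CPM in the testis, so the highest testis library was above the 0.1 CPM limit and the gene was not telencephalon-only there.

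The testis-only gene with the highest level was ENSTGUG00000012361, at 0, 0 and 0.0940 CPM in the telencephalon (lowest, median and highest of 8 birds) and 995, 1336 and 1561 CPM in the testis. It had 1 count in all 8 telencephalon libraries together and 18480 to 30092 counts in every testis library. The ratio of summed counts per depth, testis over telencephalon, was 134032, with a wide counting interval of 24056 to 5293980 because it rests on 1 count. The gene ranked 71 in the testis by mean share, so a gene nearly at 0 in the telencephalon stood among the 100 most counted of the testis. In the birds at 27 °C its lowest, median and highest levels were 0, 0 and 0.144 CPM in the telencephalon, above the limit in its highest library, and 605, 1260.0 and 1623 CPM in the testis. At 43 °C they were 0, 0 and 0.0892 CPM in the telencephalon and 1090.4, 1277 and 1673 CPM in the testis.

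Birds at the other temperatures, which share no library with those at 35 °C, were then put through the same rules. Of the 39 telencephalon-only genes, 26 met the same rule in the 7 birds at 27 °C with both tissues, which is 66.7% of the 39 and 55.3% of the 47 found there. In the 7 birds at 43 °C it was 22, which is 56.4% of the 39 and 37.9% of the 58 found there. Of the 161 testis-only genes, 111 met the rule at 27 °C (68.9% of the 161 and 77.6% of those found there) and 124 at 43 °C (77.0% of the 161 and 69.7% of the 178 found there). Of the shared genes, 10165 were shared at 27 °C (97.6% of those at 35 °C) and 10129 at 43 °C (97.3%).

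Genes chosen in the other birds were also read at 35 °C. The 31 genes that were telencephalon-only at both 27 and 43 °C took 0.0418 to 0.0539% of all telencephalon counts at 35 °C, and had 5 to 17 counts in all per testis library there. The 112 genes that were testis-only at both 27 and 43 °C had 11 to 19 counts in all per telencephalon library at 35 °C, and held 0.383 to 0.463% of the counts in the testis. In CPM of total counts alone, without TMM, the 31 genes summed to 0.596 in the testis on average and the 112 genes to 1.20 in the telencephalon. Neither set was thus entirely at 0 in the opposite tissue.

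Differences in level were tested gene by gene across the 13936 genes that passed the filter on low counts, with tissue and bird in an edgeR quasi-likelihood fit and a Benjamini-Hochberg adjusted p under 0.05 as the call. A total of 12174 genes were called, 87.4% of those tested. Of these, 6037 (43.3%) were higher and 6137 (44.0%) lower in the telencephalon. Which side had more calls rested on the scaling. With upper quartile scaling 6322 were higher and 5847 lower, and with total counts alone 6471 and 5687. The differences were large: the median size of the log2 fold change over all tested genes was 1.38, a 2.61-fold difference, against a median standard error of 0.135. When the same fit was tested against a 2-fold difference, 7617 genes (54.7%) passed, 3721 (26.7%) higher and 3896 (28.0%) lower in the telencephalon. Against a 4-fold difference 4434 genes (31.8%) passed, 2162 (15.5%) higher and 2272 (16.3%) lower. Without the filter on low counts, 17487 genes were tested, and 6531 were called higher and 7616 lower in the telencephalon. Past a 2-fold difference there were 4051 higher and 5097 lower. The near-even balance thus holds for genes that passed the filter.

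**Figure D4:**
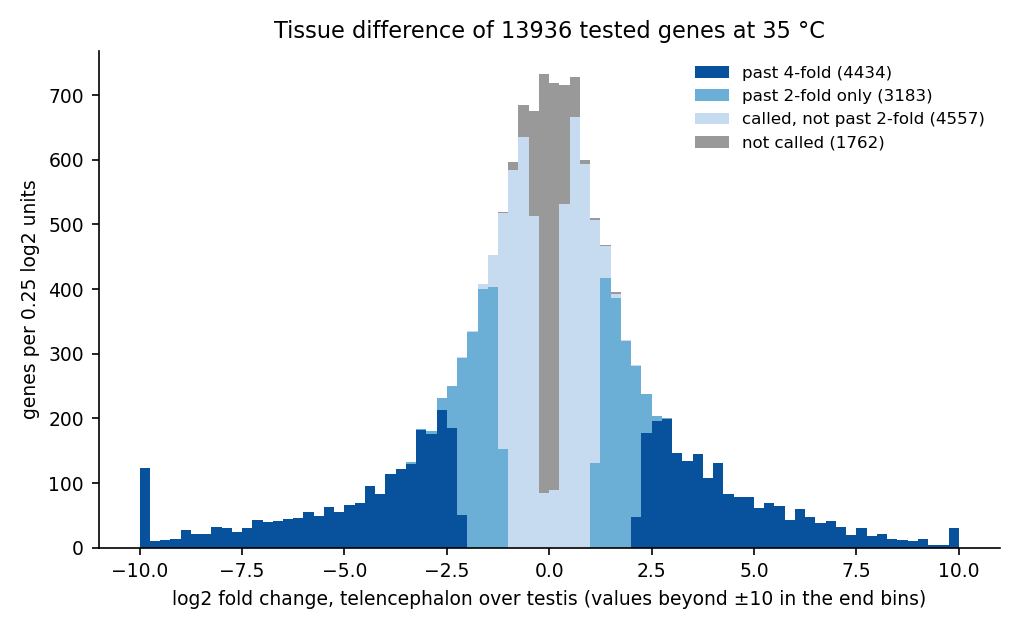
Histogram of the log2 fold change, telencephalon over testis, of 13936 tested genes at 35 °C, in bins of 0.25, stacked by the outcome of the edgeR tests; values beyond 10 in size are in the end bins. With the filter on low counts and TMM scaling, both sides hold similar numbers. Past 2-fold are 3721 genes on the side of the telencephalon and 3896 on the side of the testis. The end bin is taller on the testis side.

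Genes shown to be at a similar level in both tissues were fewer. For 1693 genes (12.1% of those tested) the 95% interval of the fold change lay within 1.5-fold in either direction, of which 1682 were shared genes. This rule needs a narrow interval, so weakly counted genes could hardly meet it. It was met by 0 of 332 genes with a mean under 1 CPM (median SE 0.353) and 5.28% of those at 1 to 10 CPM (0.230). At 10 to 100 CPM it was met by 15.4% (0.116), and at 100 CPM or more by 15.7% (0.0842). Between these 2 levels the share thus hardly rose, although the standard error was smaller. A gene that fails the rule may still have a similar level. Among the 10413 shared genes 9013 were called, 86.6%, against 87.4% of all tested genes, most of which were shared. Past a 2-fold difference were 4876 of the shared genes (46.8%), against 54.7% of all tested genes. The median size of the log2 fold change was 1.08, against 1.38. The share called was thus near that of all tested genes, and being present in both tissues did not mean a similar level. At the other extreme, 1008 genes were over 16-fold higher in the telencephalon and 1098 over 16-fold lower, and 300 and 284 of these were shared genes.

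Among the genes that passed the filter on low counts, the balance of higher and lower genes changed with level. Over all tested genes, 43.3% were called higher and 44.0% lower in the telencephalon. Among the 332 genes with a mean under 1 CPM over both tissues, 140 were called higher and 107 lower (74.4% called). Genes this weak could pass the filter through 1 tissue alone, so these numbers do not describe weak genes at large. Of the 281 genes weak in the telencephalon and under 0.1 CPM in the testis, 11 were tested. Of the mirror group of 1193 it was 26, and all tested genes of both groups were called. Among the 4018 genes of 1 to 10 CPM, 1717 were called higher and 1587 lower (82.2% called). Among the 7168 genes of 10 to 100 CPM, 3258 were called higher and 3117 lower (88.9% called). Among the 2418 genes with a mean of 100 CPM or more, 922 were called higher in the telencephalon and 1326 lower (93.0% called), with 575 and 901 of them past a 2-fold difference. The median log2 fold change of these genes was -0.42, against -0.01 over all genes tested. Scaling to total counts, without correction for composition, moved the median of all genes up by 0.15 log2 units. Under that scaling the highly counted genes still had a median of -0.27, with 989 called higher and 1255 lower in the telencephalon.

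Levels varied less between birds in the telencephalon than in the testis. The distance of a library from its tissue was taken as the root mean square difference, over the shared genes, between its log2 CPM and the mean of the other 7 libraries of the tissue. It was 0.262, 0.271 and 0.287 log2 units in the telencephalon (lowest, median and highest bird) and 0.310, 0.367 and 0.398 in the testis, without overlap. The mean difference was -0.0927 ± 0.0256 (SD), telencephalon minus testis, with the telencephalon lower in 8 of 8 birds (exact permutation p = 0.00781, adjusted p = 0.0104). The distances of a tissue share libraries through these means, and the means were not recomputed when signs were flipped. The p is therefore approximate for this measure. The testis library held more counts than the telencephalon library in each of these birds. With the single-end or the paired-end column of the testis alone the difference was -0.108 and -0.112. A column alone holds only part of the testis counts (paired-end 40.5 to 54.0%), so these 2 values carry more counting noise. Its part in them was not tested. The biological coefficient of variation, edgeR's estimate of the relative spread between birds beyond counting noise, was 16.4% in the telencephalon, against 26.1% in the testis.

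The smaller spread of the telencephalon held at each level. Among the 10413 shared genes the median SD over birds was 0.173 log2 units in the telencephalon, against 0.261 in the testis, and the SD was larger in the testis for 76.1% of the genes. Since a gene's spread depends on its level, genes were then grouped by the level in the same tissue. At 10 to 100 CPM the median SD was 0.165 in the telencephalon (6162 genes) and 0.2498 in the testis (5704 genes), and at 100 CPM or more it was 0.112 (1981 genes) and 0.199 (2257 genes). At 1 to 10 CPM it was 0.309 (2270 genes) and 0.366 (2452 genes), again lower in the telencephalon.

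Spread also differed with the direction of the tissue difference, though level moved with it. At 10 to 100 CPM in the same tissue, genes over 4-fold higher in the telencephalon, within 2-fold, and over 4-fold lower in the telencephalon had median SDs of 0.165, 0.163 and 0.177 in the telencephalon, at median levels of 45.0, 33.3 and 23.8 CPM there. In the testis the 3 kinds of genes had median SDs of 0.271, 0.239 and 0.293, at median levels of 20.1, 33.5 and 40.2 CPM there. The genes over 4-fold lower in the telencephalon had the largest median SD in the testis although their median level was the highest of the 3, whereas the first group was also the least counted. At 100 CPM or more the medians were 0.124, 0.108 and 0.0927 in the telencephalon, and 0.215, 0.184 and 0.226 in the testis. At 1 to 10 CPM in the telencephalon, genes within 2-fold had a median SD of 0.300 at a median level of 5.12 CPM. Genes over 4-fold lower had one of 0.350 at a median level of 4.36 CPM. In other birds, for genes whose direction was taken from the birds at 35 °C and whose level from the birds at hand, the testis values at 10 to 100 CPM were 0.308, 0.266 and 0.351 at 27 °C and 0.284, 0.235 and 0.308 at 43 °C. The telencephalon values there lay closer together, at 0.155, 0.151 and 0.163 at 27 °C and 0.169, 0.154 and 0.170 at 43 °C. These medians are descriptions without a test, and at 35 °C level, direction and spread come from the same libraries.

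**Figure D5:**
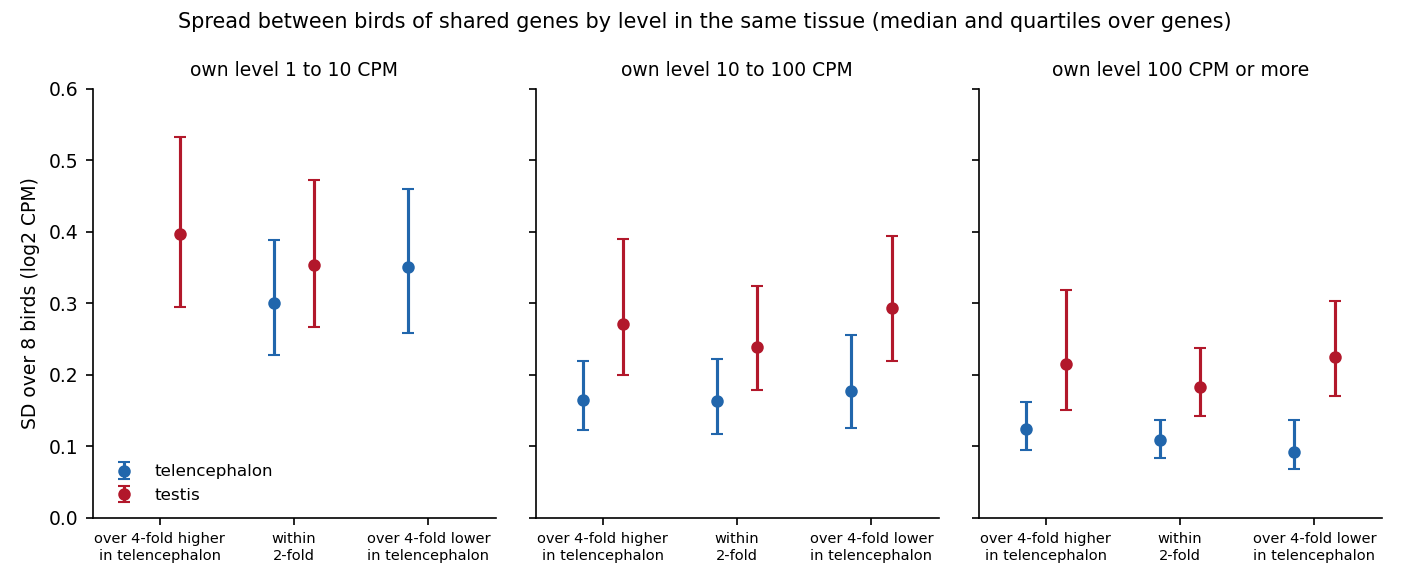
SD over 8 birds of log2 CPM of shared genes at 35 °C, telencephalon (blue, left of each pair) and testis (red, right), by level in the same tissue (panels) and by direction of the tissue difference (x axis); points are medians and bars run from the first to the third quartile of genes, and groups under 20 genes are not drawn. Telencephalon points lie below testis points in each pair drawn, with 0.165 against 0.2498 over all shared genes at 10 to 100 CPM of the same tissue.

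The whole tissue difference was much the same in birds at the other temperatures. At 27 °C 11906 of 14022 genes were called (84.9%), and at 43 °C 12124 of 13980 (86.7%). Of the 12174 genes called at 35 °C, 11401 were called in the same direction at 27 °C, which is 93.7% of the list at 35 °C and 95.8% of the list at 27 °C. At 43 °C it was 11409, which is 93.7% of the list at 35 °C and 94.1% of the list at 43 °C. Of the 20 per-library measures, tested between temperatures by exact permutation over birds, 1 of 40 differences of the tissue gap from 35 °C passed the adjusted threshold. It was the distance of libraries from the mean of their tissue at 27 °C, for which the permutation p is approximate because its values share libraries. This distance was taken over genes chosen by their levels at 35 °C. Leaving out 1 bird at 27 °C ended that call (adjusted exact permutation p = 0.0533 to 0.213) for every bird except T151 (adjusted exact permutation p = 0.0266).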

How the data were processed

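RNA was sequenced from posterior telencephalon and testis from stranded mRNA libraries, as the labels' protocols state. CASAVA, Trimmomatic 0.36, HISAT2 2.1.0 and featureCounts 1.6.4 are named, without settings, per the submitters' processing notes; genome build, annotation and strand setting are unknown here, being not given in the sources used, so overlapping, antisense and near-identical genes are uncertain. The authors deposited raw counts per gene, 1 column per telencephalon sample. The authors deposited 2 columns per testis sample, paired-end and single-end, and these whole-number counts, recorded here under the unit estimated counts, needed no rounding. They were summed to 1 library per bird. Every row named a gene.

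Groups and bird numbers came from the labels. Within 35 °C, genes were filtered with filterByExpr (minimum count 10, minimum total 15), scaled by TMM, and tested with edgeR 4.0.16 (R 4.3.3, limma 3.58.1) quasi-likelihood fits of tissue plus bird, with glmTreat for 2-fold and 4-fold; DESeq2 1.42.0, limma voom and other settings were alternatives. Standard errors and intervals were derived from the F statistic. The fits were tested on simulated data. CPM are TMM-scaled except where total counts alone are named, log2 CPM use a prior count of 2, and shares are of raw totals. Per-library measures were tested by exact sign-flip permutation over birds (scipy 1.17.1), which is only approximate for the distance from the tissue mean. The same bird number was taken as the same animal. Deviations of both tissues from their means correlated across genes at 0.0519 to 0.166 within a bird and -0.0900 to 0.0823 between birds. The highest value was in the own bird for 7 of 8 birds. The exception was T154, at 0.0519 with its own bird and up to 0.0708 with another. No 2 libraries of a tissue were duplicates (chi-square per degree of freedom at least 9.04).

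The comparison, gene classes and lists were chosen with earlier results of these data known. Named genes are, per tissue, the most counted gene past a 2-fold difference and the tissue-only gene of highest mean level. Their counting intervals and limits cover counting error only. The planned marker lists need symbols and were not run, and no sequence is shown. Testis bird T142 at 27 °C carries the tissue label brain beside a testis title and was kept as testis. Every testis library at 27 °C, that of T142 included, had at least 605 CPM of ENSTGUG00000012361 and 0 CPM of ENSTGUG00000001910. In the telencephalon at 27 °C the former reached at most 0.144 CPM and the latter was at 281 CPM or more.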

Additional observations from a re-analysis of the deposited data

Results flagged for a closer look

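The tissue gap in spread between birds was larger at 27 °C than at 35 °C. At 27 °C the distance of a library from the mean of its tissue was 0.271 ± 0.0136 log2 units in the telencephalon and 0.430 ± 0.0415 in the testis (SD, n = 7 each), over the genes shared at 35 °C. The gap differed from that at 35 °C by -0.0669 (exact two-sided permutation p = 0.000932, adjusted p = 0.0373 over 40 such tests). The permutation p of this measure are approximate, because the distances of a tissue share libraries through their means. The genes were also chosen by their levels in the birds at 35 °C. Each mean at 27 and 43 °C was taken over fewer libraries than at 35 °C. Both can make distances larger there than at 35 °C, and their part in the gap was not tested. Leaving out each bird at 27 °C in turn gave -0.0805 to -0.0606 (unadjusted exact permutation p = 0.000666 to 0.00533). Adjusted over the 40 tests these p were 0.0266 to 0.213, past the threshold in 1 of the 7 sets, the one without T151. The largest was obtained without T142, whose testis sample carries the tissue label brain (-0.0649, adjusted exact permutation p = 0.213). The same gap at 43 °C differed from that at 35 °C by -0.00638 (exact permutation p = 0.673, adjusted p = 0.982).

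In 2 of 47 groups of libraries checked, 1 library lay far from the others, where chance gives about 1 in 20, or 2.35. In the testis, bird T157 had the fewest genes with 1 to 9 counts at equal depth, 2826, against 2999.9 to 3102 in the other birds; its library also had the lowest total of the testis and a paired-end share of 54.0%. In the testis of bird T137, ranks 2 to 10 held 5.42% of the counts, against 5.99 to 6.38% in the other birds, and its most counted gene held 1.63%, the highest value of the testis.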

How the results depend on the processing

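Of 292 alternative values for 19 results, 276 kept their direction and their side of the threshold, or stayed within 1.5 times a count. The tally includes 19 values for the log2 fold change of each named gene. Those genes were picked from these data by their tissue difference, so their values could hardly change direction. Called genes ranged from 11769 of 13527 tested to 14147 of 17487 tested over all alternatives, against 12174 of 13936 in the main fit. DESeq2 called 13626 of 17487 and limma voom 12231 of 13936. When 1 bird was left out, 11978 to 12105 genes were called and 7539 to 7631 passed 2-fold, of 13931 to 13980 tested. Without the replicate block for bird, 12074 genes were called (5950 higher, 6124 lower) and 7521 passed 2-fold. For the per-library measures, permuting tissues over all libraries without the block gave exact permutation p of 0.000155, the smallest possible, for genes detected, the share of the 10 most counted genes and the distance, and 0.107 for genes holding 50% of the counts, with no call changed. A 4-fold limit left 4434 genes, 2162 higher and 2272 lower, by construction. Without T154 and T157, the birds with the higher paired-end share, 11993 genes of 14014 tested were called and 7613 passed 2-fold. Scaling to total counts gave 6471 higher and 5687 lower, and upper quartile scaling 6322 and 5847. Without the filter on low counts it was 6531 higher and 7616 lower. The paired-end testis column alone gave 11769 called genes of 13527 tested, and the single-end column alone 11891 of 13673. Of calls made both ways with the paired-end column, 99.97% had the same direction.

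At 10 counts in place of 1 the difference in genes detected was -81.4 (exact permutation p = 0.172), and at 1 CPM of total counts without TMM it was -35.1 (exact permutation p = 0.609). For 1000 genes in place of 10 the difference in share was -0.287 (exact permutation p = 0.477), and for 90% in place of 50% of the counts the difference in genes was 346.5 (exact permutation p = 0.00781). Leaving out each bird gave -805 to -741 genes detected, 4.76 to 5.17 points in the 10 most counted genes, -0.103 to -0.0878 for the distance, and -38.4 to -18.3 genes for 50% of the counts, past the threshold only without T147 (-38.4, exact permutation p = 0.0469); the cause was not tested. Telencephalon-only genes numbered 18 at 5 CPM, 25 with the paired-end column alone, 18 after reduction to the lowest total, 10 with 0 counts in the testis and 268 at 0.5 CPM there, and 40 to 48 with 1 bird left out. Testis-only genes numbered 77 at 5 CPM, 76 with 0 counts in the telencephalon, 411 at 0.5 CPM there, and 165 to 180 with 1 bird left out. Shared genes numbered 10446 to 10503 with 1 bird left out. The unpaired tests of libraries, CPM without TMM, reduction to the lowest total, and leaving out T142, or T154 with T157, were chosen after seeing the data. In every telencephalon library a gene with more than 1 count is above the 0.1 CPM limit.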

Other observations

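The paired-end and single-end columns of the testis gave a second view of the same samples. Across 13936 genes their log2 levels correlated at 0.987 to 0.992 within a bird. In 116 genes (0.832%) the mean difference between the columns over 8 birds was above 1 log2 unit in size, and in 28 of these it was above 1 in the same direction in all 8 birds. It is not stated whether the columns are 1 library sequenced in 2 ways.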
